A study of Sus scrofa with 96 samples.

Results

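In the liver of Danish Landrace boars, 18 genes had a median level that stepped down with the genetic merit of boar taint (BT), first from low to medium merit and again from medium to high merit. They were chosen in 46 liver libraries made with a stranded mRNA kit, on counts per 1000000 reads on genes (CPM). A gene was taken when its median log2(CPM + 0.5) fell by at least 0.25 at each step. It also needed a median of 5 to 200 CPM over these livers, a standard deviation of log2(CPM + 0.5) under 1 and a median of at least 1 CPM in testes prepared with the same kit, and 2 blocks of identifiers were set aside. Of 25322 genes in the count tables, 6339 passed these limits and 18 (0.284%) stepped down. The same rule turned around, with a rise at both steps, found 4 genes (0.0631%). The 18 genes were thus chosen by the liver values of the 3 merit groups, and the falls in those livers are given as a description, without support from any test on the same livers.

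The pigs were intact commercial males slaughtered at about 100 kg. Their merit was the breeding value of their sire, summed over skatole in fat and a human nose score, so pigs of a group may share a sire and p-values over pigs do not account for this. Liver was sampled from the carcass first and testis after cold storage. The stranded mRNA kit was used for 15 livers of low, 16 of medium and 15 of high merit, which all carried the label of batch 1. The same kit was used for testis of 7 pigs of low and 7 of medium merit in batch 1 and of 6 of medium and 14 of high merit in batch 2. RNA of lower integrity went into total RNA libraries, all in batch 3, namely 1 liver of low and 1 of high merit and 9 testes of low, 3 of medium and 2 of high merit. No group was treated, and all 48 pigs were of the same breed and management.

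BT is the off-odour of meat from some intact boars. It comes mainly from skatole, a product of bacterial tryptophan breakdown in the gut, and from androstenone, a steroid made by the Leydig cells of the testis, and both are cleared by oxidation and conjugation in hepatocytes. The 18 genes are not a pathway. They hold enzymes of carnitine synthesis, fatty acid oxidation, glutathione reduction and carbon dioxide hydration, proteins of the endoplasmic reticulum and of vesicle traffic, nucleotide-binding proteins, an atypical cyclin, a lipid-presenting molecule and a matrix protein. A gene symbol was available for 12 of the 18, and the other 6 are given by Ensembl identifier.

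Reads on genes ranged from 3728775 to 12156143 in the 46 livers, with a median of 9472046. The smallest count of any of the 18 genes in a liver was 9. The liver label held for the libraries, in which the sum of 4 matched hepatocyte markers ranged from 59195 to 235714 CPM against 70.1 to 686 CPM in the stranded mRNA testes. Matched Leydig cell markers (CYP17A1, INSL3 and CYP11A1) all had a median under 0.5 CPM in each merit group of livers, and their sum reached 7.57 CPM at most. That value was in the liver of high merit of pig 7131, which also had the highest sum of 4 germ cell markers (24.6 CPM, against a median of 1.33 CPM in high merit and 19450 CPM in the stranded mRNA testes). Without that liver the rule found 20 genes, 15 of the 18 among them. In such bulk tissue, fewer cells of a type and less RNA per cell cannot be told apart.

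Among the metabolic enzymes, the largest fall was that of BBOX1, the dioxygenase of the last step of carnitine synthesis. It ranged from 20.7 to 126 CPM (median 46.5) in livers of low merit, from 13.8 to 65.3 CPM (median 37.1) in medium merit and from 9.94 to 95.3 CPM (median 25.3) in high merit. The groups overlapped, with 4 of 15 livers of high merit below every liver of low merit and 1 liver of low merit above every liver of high merit. Its medians differed by -0.33 and then -0.54 on the log2 scale.

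CA2, a cytosolic carbonic anhydrase that is also abundant in red blood cells, went from 9.15 to 64.8 CPM (median 34.2) in low merit, from 8.95 to 60.6 CPM (median 28.2) in medium merit and from 6.30 to 62.9 CPM (median 18.9) in high merit. It had the widest spread of the 18 genes, with a standard deviation of 0.85 on the log2 scale, and the ranges of the 3 groups were close to equal. The smaller of its steps was the first (-0.27, against -0.56 for the second). The sum of 3 matched blood markers had medians of 2276, 1396 and 1396 CPM in low, medium and high merit and ranged from 172 to 8571 CPM over the livers. Within merit groups the correlation of the level of CA2 with that sum was -0.010 over 46 livers, and the part of blood in the level of CA2 was not tested.

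GSR, the glutathione reductase that keeps glutathione in its reduced form, was the only 1 of the 18 genes on a list of 38 genes of skatole and androstenone metabolism. Its level was 6.13 to 19.95 CPM (median 12.8) in low merit, 2.99 to 21.8 CPM (median 9.44) in medium merit and 3.67 to 21.4 CPM (median 7.73) in high merit. Here the highest liver of high merit stood above all livers of low merit, and only 4 of 16 livers of medium merit lay between the medians of the other groups. ACAD10, a member of the acyl-CoA dehydrogenase family, was measured at 11.9 to 38.1 CPM (median 23.8) in low, 10.6 to 45.7 CPM (median 19.3) in medium and 10.9 to 34.2 CPM (median 15.3) in high merit. Its highest liver was of medium merit, while 13 of 15 livers of high merit lay below the median of low merit.

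**Figure D1:**
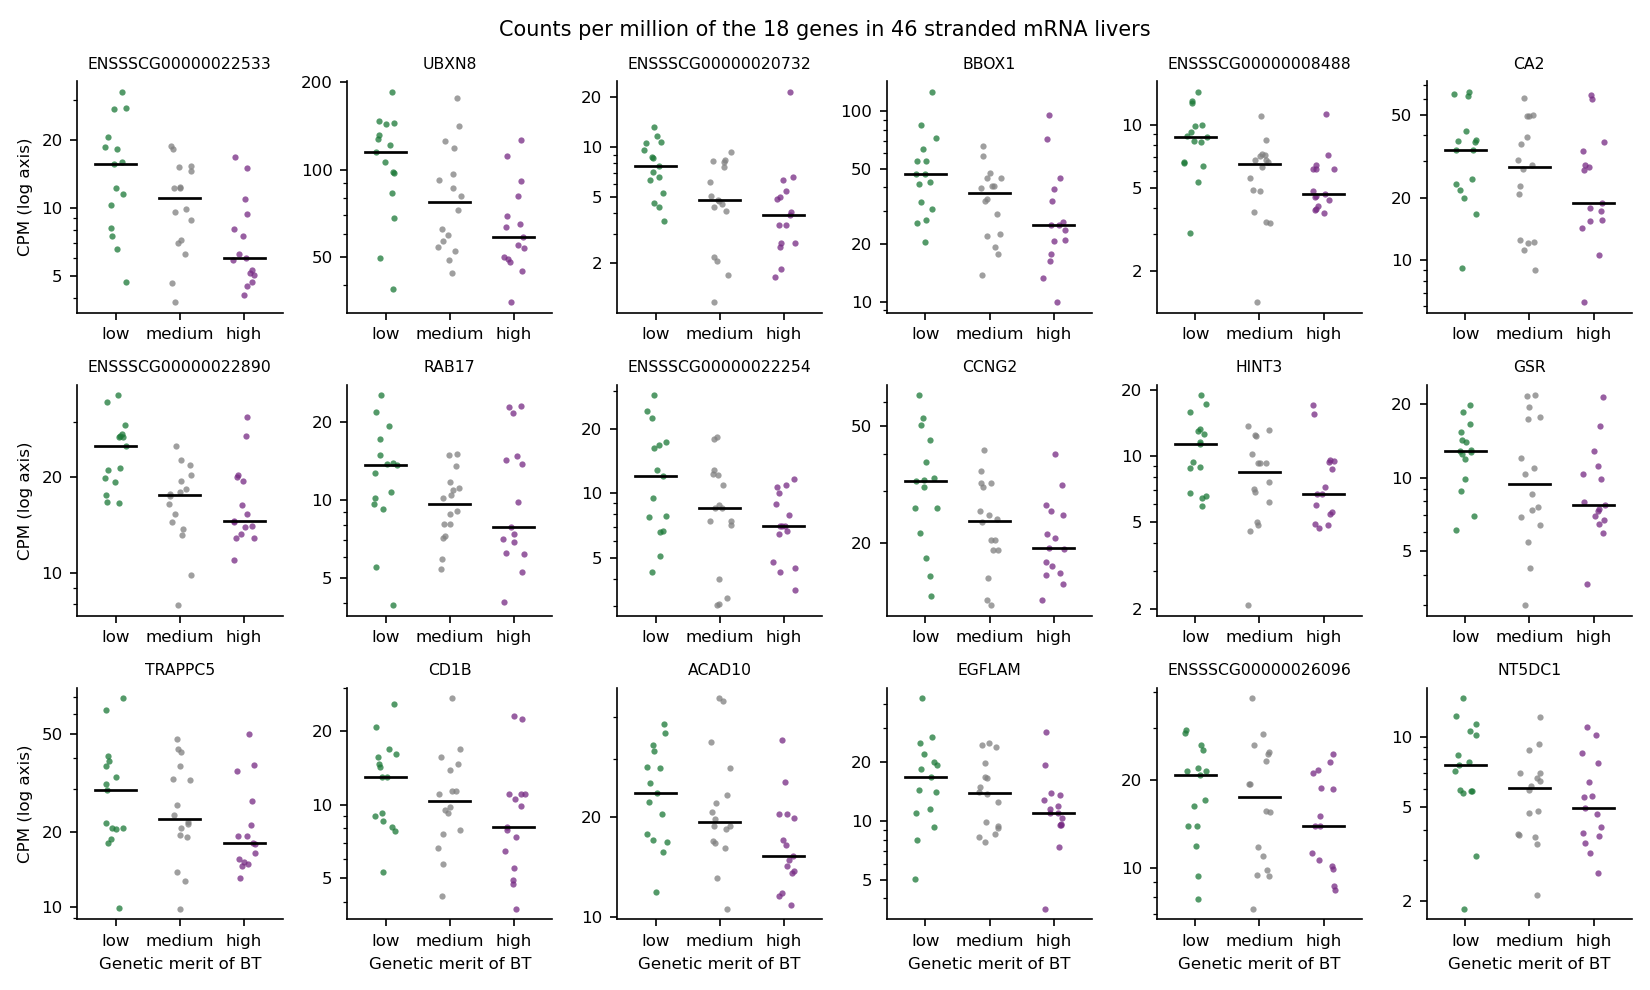
CPM (log axis) of each of the 18 genes in 15 livers of low, 16 of medium and 15 of high genetic merit of BT, with 1 point per liver and a black line at the group median. The medians step down from left to right because the genes were chosen for it, and in all 18 panels the points of low and high merit overlap.

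Among proteins of membranes and traffic, UBXN8, which anchors the ATPase p97 at the endoplasmic reticulum, had the largest fall of the genes with a symbol. It ranged from 38.9 to 185 CPM (median 115) in low merit, from 44.0 to 177 CPM (median 77.3) in medium merit and from 35.0 to 127 CPM (median 58.6) in high merit. In words, 14 of 15 livers of high merit lay below the median of low merit, but only 1 of them lay below the lowest liver of low merit. Its steps were -0.58 and -0.39.

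RAB17, a small GTPase of transport in polarised epithelial cells, was found at 3.91 to 25.4 CPM (median 13.7), 5.39 to 15.0 CPM (median 9.64) and 4.03 to 23.1 CPM (median 7.89) in low, medium and high merit, respectively. The livers of high merit were spread widely, and only 9 of 15 lay below the median of low merit, the fewest of any of the 18 genes. TRAPPC5, a subunit of the TRAPP complexes that tether vesicles, was found at 9.85 to 69.4 CPM (median 29.5), 9.84 to 47.4 CPM (median 22.7) and 13.0 to 49.7 CPM (median 18.01). No liver of high merit lay below the lowest of low merit for either gene.

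CCNG2, the atypical cyclin G2, which is linked to cell cycle arrest, ranged from 13.2 to 63.4 CPM (median 32.4) in low merit, from 12.3 to 41.3 CPM (median 23.8) in medium merit and from 12.8 to 40.2 CPM (median 19.2) in high merit. The lower ends of the groups were alike and the upper ends differed, with 4 livers of low merit above every liver of high merit. HINT3, a histidine triad nucleotide-binding protein, had medians of 11.3, 8.40 and 6.72 CPM, within ranges of 5.90 to 18.8, 2.08 to 13.7 and 4.69 to 17.0 CPM. NT5DC1, which carries a 5′-nucleotidase domain, had the smallest whole fall (-0.55), with medians of 7.54, 6.06 and 4.97 CPM. Its ranges of 1.86 to 14.5, 2.12 to 12.1 and 2.62 to 11.0 CPM began lowest in low merit.

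CD1B presents lipid antigens to T cells and is known from dendritic cells. Its liver values were 5.31 to 25.8 CPM (median 13.0) in low, 4.24 to 27.2 CPM (median 10.4) in medium and 3.76 to 23.0 CPM (median 8.11) in high merit. Livers of each group reached above 20 CPM, and 13 of 15 livers of high merit lay below the median of low merit. Within merit groups its level did not move with the summed Kupffer cell markers (r = 0.0032) or with the summed blood markers (r = 0.011), and it was lower where the hepatocyte markers were higher (r = -0.54, 46 livers). EGFLAM, the matrix protein pikachurin, ranged from 5.03 to 42.5 CPM (median 16.7), from 7.77 to 25.2 CPM (median 13.9) and from 3.55 to 28.5 CPM (median 11.0) in low, medium and high merit. The step of EGFLAM from low to medium was -0.26, close to the limit.

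Of the 6 genes without a symbol, ENSSSCG00000022533 had the largest fall of all 18 (-1.31, with steps of -0.49 and -0.82). It ranged from 4.70 to 32.6 CPM (median 15.6) in low merit, from 3.82 to 18.8 CPM (median 11.0) in medium merit and from 4.12 to 16.7 CPM (median 5.98) in high merit. Most livers of low merit stood high for it, as 14 of 15 exceeded the median of high merit and 6 exceeded every liver of high merit. ENSSSCG00000022254 was the gene with most livers of low merit (8) above every liver of high merit and with all 15 livers of high merit below the median of low merit (12.1 CPM against 7.06 CPM). ENSSSCG00000022890 had the smallest spread (standard deviation 0.46) and the most livers of high merit (10 of 15) below the lowest liver of low merit. Its medians were 25.2, 17.6 and 14.6 CPM.

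Of the other 3 genes without a symbol, ENSSSCG00000020732 lay nearest to the lower limit of level, with a median of 5.06 CPM over the livers, and its highest value (21.5 CPM) was in a liver of high merit. ENSSSCG00000008488 had medians of 8.79, 6.48 and 4.68 CPM. ENSSSCG00000026096 was the gene nearest to the limit of the steps, with a smaller step of 0.251. Just inside the limit stood also ENSSSCG00000020732 (0.259) and EGFLAM (0.260), and just outside stood DIABLO (0.246), NAT9 (0.243) and ENSSSCG00000005007 (0.242).

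Compared across the 18 genes, livers of low and high merit overlapped in all 18. Between 9 and 15 of the 15 livers of high merit lay below the median of low merit, and at most 10 lay below the lowest liver of low merit. The same animals recurred at the edges. The lowest liver of low merit was that of pig 1127 in 9 of the 18 genes, and the highest liver of high merit was that of pig 8332 in 7 genes and of pig 1326 in 4. The 18 genes also varied more between livers than the 6339 genes they were drawn from, with a median standard deviation of 0.65 against 0.44. The part of this spread in the choice of the genes was not tested.

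A fall at both steps was rare among the step patterns under this scaling. Over the 6339 genes the median step was -0.16 from low to medium and 0.10 from medium to high, and 73.6% of genes fell at the first step while 29.2% fell at the second. A fall and then a rise of at least 0.25 was seen in 990 genes and a rise and then a fall in 103. Both steps are taken from the same livers of medium merit, so they are not independent of each other.

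The membership of the 18 genes depended on how reads were scaled. With TMM factors, 27 genes stepped down and 10 stepped up, but only 4 of the 18 were among the 27 (ENSSSCG00000022533, ENSSSCG00000020732, CCNG2 and ACAD10). With the size factors of DESeq2, 21 genes stepped down and 2 of the 18 were among them (ENSSSCG00000020732 and RAB17). The whole difference between low and high merit was below 0 for all 18 genes under the 3 scalings, a sign that the choice of the genes on the same livers nearly fixes, against 57.4% of all genes within the limits by column sums, 51.7% with TMM and 48.2% with size factors. Its median over the 18 genes was -0.74 by column sums, -0.56 with TMM and -0.56 with size factors. The step from medium to high was below 0 in all 18 genes under each scaling. Of all genes within the limits, 29.2% by column sums, 51.1% with TMM and 54.6% with size factors had this step below 0. The step from low to medium was below 0 in 16 of the 18 with TMM and in 15 with size factors, against 53.1% and 48.1%. Its median over the 18 genes shrank from -0.41 by column sums to -0.23 and -0.20. The same livers chose the genes by these steps, so nothing is read from their signs.

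**Figure D2:**
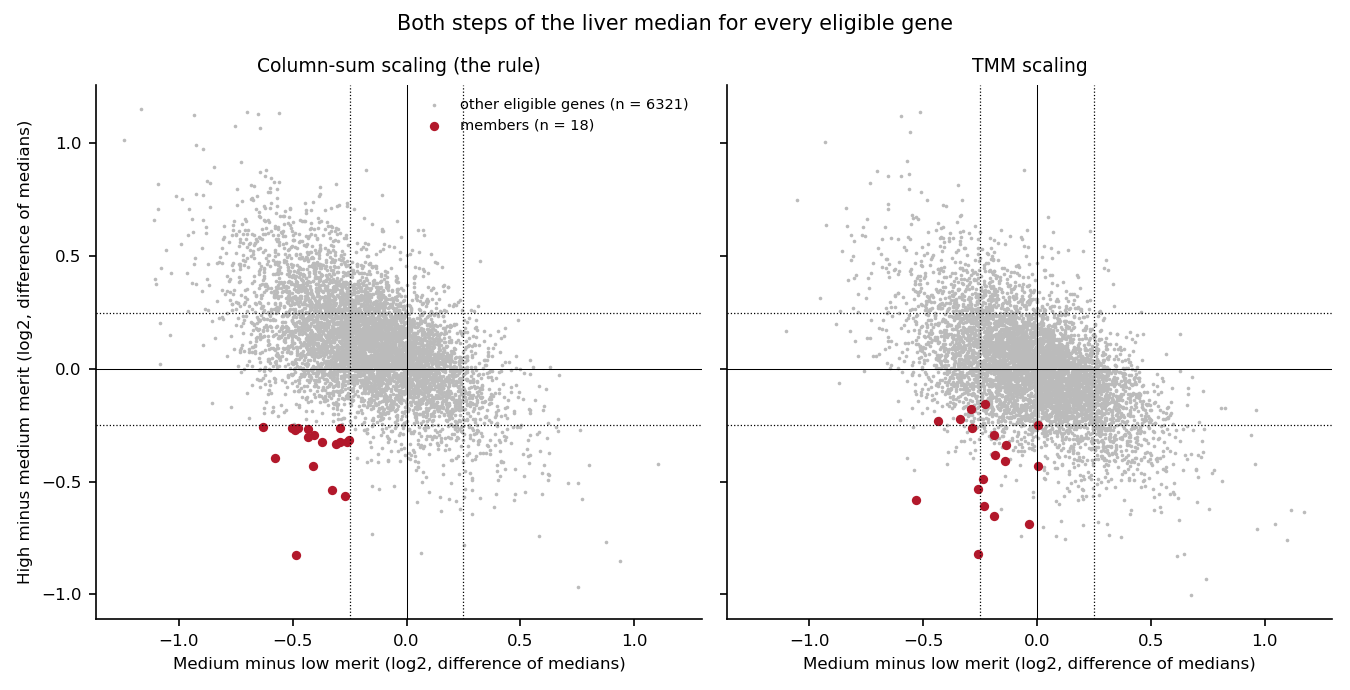
Difference of the liver median of log2(CPM + 0.5) between medium and low merit (x axis) and between high and medium merit (y axis), for the 18 genes (red) and all other genes within the limits (grey), with dotted lines at 0.25 on either side of 0. With column sums the red points fill the lower left corner by choice, and with TMM factors 4 of the 18 remain beyond both lines.

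The level of the 18 genes moved with the makeup of the libraries. The 10 most abundant genes of a liver, led by the albumin gene ALB, took a median of 28.4% of its reads in low merit, 32.3% in medium merit and 33.4% in high merit, within ranges of 23.4 to 35.4%, 24.6 to 46.05% and 20.4 to 36.7%. The mean log2(CPM + 0.5) of the 18 genes was lower where that share was higher (Pearson r = -0.69, Spearman rho = -0.71 over 46 livers, and r = -0.68 without the 2 livers farthest from the median). The relation was seen within low (r = -0.70), medium (r = -0.70) and high merit (r = -0.67), or r of -0.62, -0.50 and -0.38 without the 2 farthest livers of each group. It was weaker with TMM factors (r = -0.27 over all livers, -0.42, -0.094 and -0.045 within the groups). The 6339 genes as a whole showed it too by column sums (r = -0.80). Pig 8332, which held the highest value of high merit in 7 of the 18 genes, had the smallest share on the 10 most abundant genes (20.4%) of all livers.

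**Figure D3:**
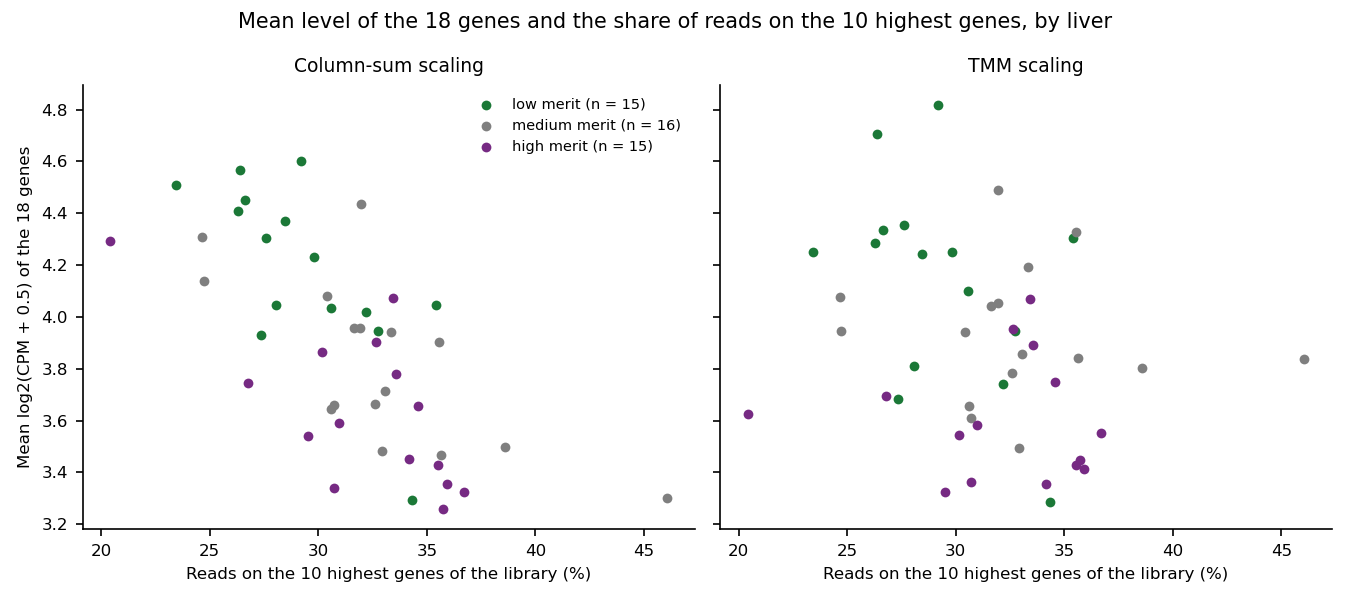
Mean log2(CPM + 0.5) of the 18 genes against the share of reads on the 10 most abundant genes, 1 point per liver, coloured by merit (15 low, 16 medium, 15 high), by column sums (left) and with TMM factors (right). The points slope down in the left panel (r = -0.69) and less in the right panel (r = -0.27). Most livers of high merit lie in the lower part of the right panel, which the choice of the genes on these livers nearly fixes.

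Taken gene by gene within merit groups, 15 of the 18 genes were lower where the 10 most abundant genes took a larger share (median r = -0.48, from -0.75 for ENSSSCG00000022890 to 0.26 for ACAD10), and 12 with TMM factors (median r = -0.19). Depth went the same way more weakly (median r = -0.17, below 0 in 17 genes). The summed markers of Kupffer cells, the liver macrophages, were related to the genes below 0 in 17 of 18 (median r = -0.34, and -0.29 with TMM factors), with a sum of 257, 309 and 282 CPM at the median of low, medium and high merit. The relation to the 2 matched endothelial markers was above 0 in 14 of 18 (median r = 0.23), highest for ENSSSCG00000020732 (0.64) and BBOX1 (0.53), and with TMM factors it was above 0 in 9 (median r = -0.04). ENSSSCG00000020732 was also higher with the 3 matched stellate cell and fibroblast markers (r = 0.54, and 0.47 with TMM factors). Signs as uneven were seen for markers that were low in liver. By column sums, the relation was above 0 in 16 of 18 genes for both Leydig cell and germ cell markers (median r = 0.15 each). With TMM factors it was above 0 in 16 and 11. For the hepatocyte markers it was below 0 in 16 of 18 (median r = -0.16), and in 10 with TMM factors. For the 3 matched blood markers it was above 0 in 12 of 18 (median r = 0.09), and in 14 with TMM factors (median r = 0.16). By column sums it ran from -0.20 for BBOX1 to 0.45 for ENSSSCG00000026096, with 0.43 for TRAPPC5 and 0.41 for ACAD10. With TMM factors the last 3 genes had r of 0.44, 0.40 and 0.38. No share over all genes is given for the marker sums, for depth or for the share of the 10 most abundant genes. Nothing is therefore read from these counts of genes. The part of library makeup and of cell types in the falls was not tested.

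Within merit groups the 18 genes were loosely correlated, close to all pairs by column sums and above them with TMM factors. Over 153 pairs the median r was 0.24 and 81.0% of pairs were above 0, against a median of 0.21 and 75.3% over all pairs of the 6339 genes. With TMM factors the medians were 0.18 (79.7% of pairs above 0) for the 18 genes and 0.0098 (51.3%) for all pairs. These correlations share the libraries and the scaling and describe the 46 livers.

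The closest pair by column sums was UBXN8 and GSR (r = 0.76, and 0.70 with TMM factors). Their identifiers are consecutive and no other RefSeq gene lies between them in the pig assembly Sscrofa11.1. No other 2 of the 18 genes have consecutive identifiers. The order in RefSeq was looked up only for pairs successive by identifier and matched by symbol to 1 chromosome. Of the remaining pairs, TRAPPC5, ACAD10 and ENSSSCG00000026096 formed a group under both scalings. By column sums r was 0.74 for TRAPPC5 and ENSSSCG00000026096, 0.71 for ACAD10 and ENSSSCG00000026096 and 0.66 for TRAPPC5 and ACAD10. With TMM factors these pairs had r of 0.80, 0.78 and 0.74, each above that of UBXN8 and GSR. CCNG2 was related to each gene of this group as well. Its r was 0.66 to ACAD10, 0.56 to ENSSSCG00000026096 and 0.50 to TRAPPC5 by column sums, and 0.70, 0.63 and 0.61 with TMM factors. ACAD10 and CD1B, on the other hand, were the least related to the rest with TMM factors, with a median r to the other 17 genes of 0.05 and 0.04.

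The contrasts of merit in liver were fitted over 12198 genes in 1 design with the 3 groups, by limma after voom weighted for sample quality. As the same livers chose the genes, nothing is read from the number of them that passed. From low to medium merit, 15.3% of all genes were called lower at an adjusted p under 0.05, among them 3 of the 18 (ENSSSCG00000022890, ENSSSCG00000008488 and CCNG2). From medium to high merit, 0.0164% were called lower and none of the 18, of which 2 had an unadjusted p under 0.05. In either direction 1792 of the 12198 genes had such a p. Between high and low merit, 3.53% were called lower and 7 of the 18 (ENSSSCG00000022890, ENSSSCG00000020732, BBOX1, UBXN8, ENSSSCG00000008488, ENSSSCG00000022533 and CCNG2).

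In that last contrast the log2 fold changes of the 18 genes ran from -1.02 ± 0.23 (SE) for ENSSSCG00000020732 to -0.32 ± 0.19 for ENSSSCG00000026096, with a median of -0.64 against -0.07 over all genes. BBOX1 (-0.93 ± 0.22) and UBXN8 (-0.82 ± 0.19) were called at an adjusted p of 0.016 each by limma. GSR (-0.65 ± 0.21) had an adjusted p of 0.060 by limma and was not called. Across the fits its log2 fold change ran from -0.73 to -0.45 and its adjusted p from 0.027 to 0.54. It was among the 12 called by limma with all 48 livers and the kit as a covariate. The study, which used all 48 livers without a term for the kit, named GSR as a candidate biomarker in liver. Its candidates had to pass limma and a Kruskal-Wallis test over the merit groups, and were chosen by annotation or co-expression. It also listed ACAD10 among oxidoreductase genes that were lower in livers of high merit. The calls rested on the fit. With edgeR, 0.0082% of genes were called lower and none of the 18. An unadjusted p under 0.05 by edgeR was found for 13 of the 18 and for 1427 of the 12198 genes. By limma without quality weights likewise 0.0082% of genes were called lower and none of the 18. There 12 of the 18 and 1046 of all genes had an unadjusted p under 0.05. The same livers chose the 18 genes, so nothing is read from these counts either. With TMM factors before voom, 1.06% of genes were called lower and 5 of the 18.

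Of the 38 genes of skatole and androstenone metabolism, 21 were matched and 20 tested in liver. The list includes genes that the study named from these samples, GSR among them, so the place of GSR on it is not independent evidence. Between high and low merit the median log2 fold change of the list was -0.25 by limma. Of its 20 genes tested, 3 were called lower, against 3.53% of all genes, and none was called higher. GSR, the only 1 among the 18, was not called in this fit. The other lists held none of the 18 genes. In the same contrast 6 of 27 cytosolic ribosomal proteins, 3 of 43 of the mitochondrial ribosome, 5 of 49 of oxidative phosphorylation, 4 of 17 of protein export, 1 of 24 of the proteasome and 6 of 135 zinc finger genes were called lower, and 1 zinc finger gene was called higher.

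The livers that the rule did not use were the 2 total RNA livers, 1 of low merit with 4046334 reads on genes and 1 of high merit with 3864873. The difference between them has no replicate check. In 13 of the 18 genes the liver of high merit had the lower CPM, against 55.2% of the 6339 genes, and the median difference was -0.68 on the log2 scale against -0.07.

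The largest difference was that of ENSSSCG00000022533, with 21.0 CPM (85 reads) in low and 3.62 CPM (14 reads) in high merit. CD1B followed, with 14.3 CPM (58 reads) and 3.36 CPM (13 reads). GSR had 32.6 and 9.83 CPM, HINT3 had 17.8 and 7.24 CPM and UBXN8 had 92.2 and 42.7 CPM. BBOX1 was also lower in the liver of high merit (23.5 against 38.6 CPM), whereas CA2 hardly differed (32.3 against 34.4 CPM). The 5 genes that were higher in the liver of high merit were RAB17 (6.21 against 3.95 CPM), CCNG2, TRAPPC5, ACAD10 and ENSSSCG00000020732. The share of reads on the 10 most abundant genes was 31.1% in the liver of low and 34.02% in that of high merit, and its part in these differences was not tested.

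**Figure D4:**
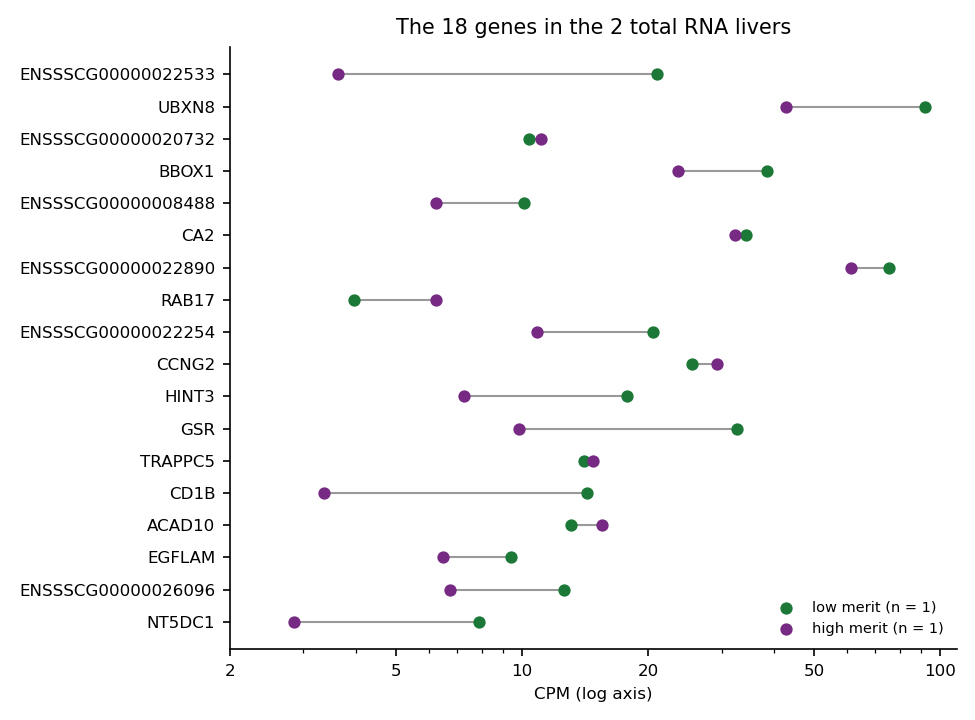
CPM (log axis) of the 18 genes in the total RNA liver of low merit (green) and that of high merit (purple), 1 library each, joined by a line for each gene. In 13 genes the purple point lies left of the green point, farthest for ENSSSCG00000022533, and in RAB17, CCNG2, TRAPPC5, ACAD10 and ENSSSCG00000020732 it lies right of it.

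In testis, the step with merit was not detected for any of the 18 genes. The rule used their overall level there and not the merit of the testes, which come from the same pigs as the livers. Between medium and low merit in batch 1 (7 and 7 testes, 15411 genes), limma called 0.0% of genes and none of the 18. At an unadjusted p under 0.05 there were 2252 genes, 3 of them among the 18, and edgeR called none and DESeq2 called 6 genes, without any of the 18. By limma 5 of the 18 fold changes were below 0, against 37.6% of all genes, and their median was 0.12 against 0.08 over all genes. With edgeR 9 of the 18 were below 0, against 43.4% of all genes, with a median of -0.0038. With DESeq2 10 of the 18 were below 0. Between high and medium merit in batch 2 (14 and 6 testes, 15164 genes), 0.00659% of genes were called by limma and none of the 18. An unadjusted p under 0.05 was found for 2 of the 18 and for 627 of all genes. Here 8 of the 18 were below 0 with limma and 13 with edgeR, with medians of 0.01 and -0.13. Over all genes 48.6% and 48.9% were below 0.

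By limma, the 5 genes with the lowest p in testis from low to medium merit went in the other direction than in liver. Most genes did so, as 37.6% of all were below 0. With TMM factors before voom, ENSSSCG00000026096 was among the 5 and was below 0 (-0.31, unadjusted p of 0.082). The highest testis of medium merit for CCNG2, EGFLAM and ENSSSCG00000020732 was that of pig 8308, whose testis library was unlike the others. CCNG2 had 9.56 to 14.1 CPM (median 12.1) in low and 12.7 to 32.6 CPM (median 17.1) in medium merit, with 6 of 7 testes of medium merit above every testis of low merit. Its log2 fold change was 0.39 ± 0.14 (SE), with an adjusted p of 0.23 by limma. GSR had 3.37 to 9.30 CPM (median 6.97) in low and 5.13 to 16.1 CPM (median 9.10) in medium merit (0.61 ± 0.25, adjusted p of 0.28 by limma). For GSR the groups overlapped, with 3 of 7 testes of medium merit above all of low merit. ENSSSCG00000020732 (0.52 ± 0.21), EGFLAM (0.32 ± 0.17) and ENSSSCG00000022890 (0.33 ± 0.18) also had values above 0 and did not pass the test (adjusted p of 0.27 to 0.40 by limma).

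From medium to high merit the largest differences in testis were those of CD1B and RAB17. CD1B had 1.75 to 8.32 CPM (median 5.18) in medium and 0.963 to 5.98 CPM (median 1.88) in high merit, with 6 of 14 testes of high merit below every testis of medium merit. The log2 fold change was -1.11 ± 0.37, with an unadjusted p of 0.0061 and an adjusted p of 1.00 by limma. RAB17 was low in testis, with 1.55 to 2.92 CPM (median 1.99) in medium and 0.447 to 2.11 CPM (median 1.39) in high merit (-0.68 ± 0.26, adjusted p of 1.00 by limma). For RAB17, 9 of 14 testes of high merit lay below all of medium merit. ENSSSCG00000022254 (-0.45 ± 0.26), ENSSSCG00000022533 (-0.29 ± 0.17) and BBOX1 (-0.34 ± 0.22) followed and did not pass the test.

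**Figure D5:**
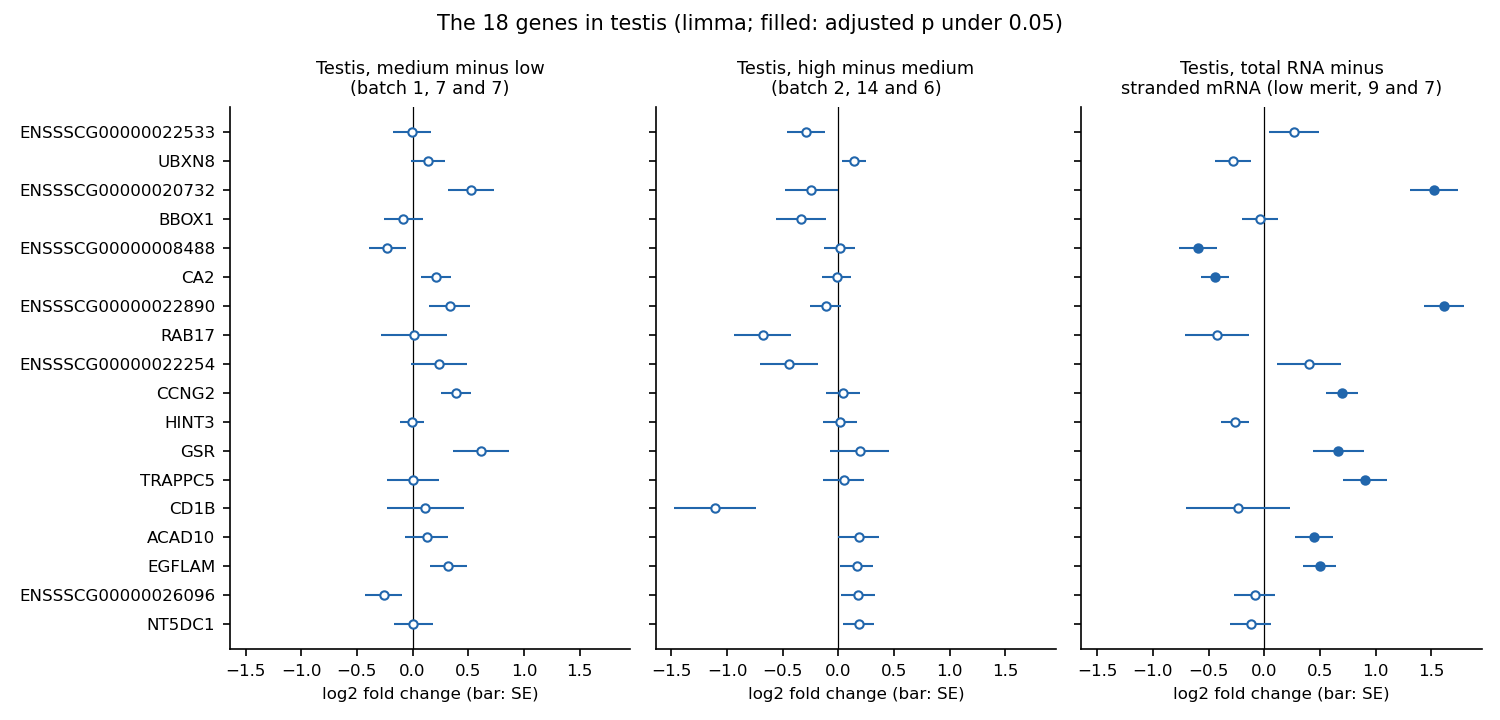
log2 fold change of each of the 18 genes in testis (points, with bars of 1 SE) for medium minus low merit, high minus medium merit and total RNA minus stranded mRNA libraries, from limma. Filled points passed an adjusted p of 0.05, which none did in the panels of merit and 9 did in the panel of library kit.

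Between library kits, in contrast, differences were measured in testis. Among pigs of low merit (9 total RNA and 7 stranded mRNA testes, 14753 genes), limma called 26.1% of genes higher and 31.5% lower in total RNA libraries, and of the 18 genes 7 were higher and 2 lower. Kit, batch and RNA integrity cannot be told apart here. ENSSSCG00000022890 had 5.81 to 11.7 CPM (median 6.18) in stranded mRNA and 14.6 to 30.9 CPM (median 21.9) in the 8 total RNA libraries other than that of pig 3309, which held counts on only 940 genes, and the groups did not overlap. Its log2 fold change over all 16 testes was 1.61 ± 0.18. ENSSSCG00000020732 was likewise higher without overlap, at 7.80 to 18.5 CPM (median 9.67) against 2.39 to 5.31 CPM (median 3.83).

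TRAPPC5, CCNG2, GSR, EGFLAM and ACAD10 were the other genes called higher in total RNA, by 0.45 to 0.91 on the log2 scale, and ENSSSCG00000008488 (-0.60 ± 0.17) and CA2 (-0.44 ± 0.13) were called lower. Without pig 3309 the number of calls among the 18 was 7 higher and 2 lower again. That fit was made only by limma with quality weights. With edgeR, DESeq2 and limma without quality weights, which called 5.48%, 11.2% and 7.04% of genes in either direction, none of the 18 was called. The library of pig 3309 was kept in these fits, and its part in the absence of calls was not tested. In these fits 2, 3 and 1 of the 18 had an unadjusted p under 0.05, as had 2262, 3645 and 2827 of the 14753 genes. Among pigs of medium merit, with 3 total RNA testes against 13 stranded mRNA testes of batches 1 and 2, limma called 13.7% of 15511 genes higher and 36.5% lower, and of the 18 genes 3 higher and 5 lower.

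Most of the 18 genes had a higher median CPM in liver than in testis. Only 6 were higher in the stranded mRNA testes (HINT3, CA2, UBXN8, NT5DC1, ENSSSCG00000008488 and EGFLAM), against 64.6% of the 6339 genes. HINT3 had the widest contrast, with a median of 153 CPM in testis and 8.84 CPM in liver. BBOX1 (5.13 CPM in testis, 34.1 CPM in liver), RAB17 (1.66 and 10.3 CPM) and ENSSSCG00000022254 (1.20 and 8.24 CPM) were those most on the side of liver. CPM were compared within a gene only, between tissues whose most abundant genes differ.

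In the 34 pigs with stranded mRNA libraries of both tissues, the level in liver said little about the level in testis of the same pig. With both centred within merit and batch, r had a median of 0.065 over the 18 genes and was above 0 in 11, against 0.015 and 53.1% over the 6339 genes. CD1B was highest (r = 0.48, and 0.54 without pig 8308, whose testis library was unlike the others). The 90th percentile of the 6339 genes was 0.24 over the 34 pigs. ENSSSCG00000022533 (r = 0.32), BBOX1 and NT5DC1 (r = 0.26) also lay above it. As CD1B was picked as the highest of 18, nothing is read from its place above that percentile. BBOX1 had r = 0.28, or 0.42 without pig 8308, and CA2 was lowest (r = -0.24, or -0.082 without that pig).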

How the data were processed

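RNA-Seq counts of 96 libraries, liver and testis of 48 boars, were analysed. Reads had been trimmed by the authors (cutadapt 1.8.1, Trimmomatic 0.33) and aligned by STAR against the pig genome 10.2 with Ensembl annotation. The deposited files hold the raw read counts per gene that the authors made with HTSeq 0.6.0 at default settings. No strand option is named beyond those defaults, and its fit to the kits was not tested, so values of overlapping genes on opposite strands are uncertain. The 5 closing HTSeq rows, which name no gene, were left out of the totals. Batches were read from the submitters' file labels.

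CPM were counts over the sum on genes. Genes with a mean count above 5 were fitted with limma 3.58.1 (voom with sample quality weights, no scaling factors, Benjamini-Hochberg adjusted p) in R 4.3.3, with edgeR 4.0.16 and DESeq2 1.42.0 as alternatives. The fits were run on simulated counts too. Those held no differences in library makeup or quality, so they cannot show how the fits behave where the real libraries differ in these. Standard errors are those of limma. Deeper libraries carry less counting error, and depth limited the low genes most. Symbols were found for 11804 of 25322 identifiers, and those of Sscrofa11.1 served only for gene order. No coordinates or sequences are given.

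The members and lists were chosen with earlier results of these data known. The genes to be described in full were the 10 with the largest fall, those on a list, those nearest to each limit and the 5 of lowest p in each testis comparison, and HINT3, ACAD10 and NT5DC1 were added so that all 18 are accounted for. All 18 passed the filter on low counts in every fit. The correlation with marker sums was added after the values were seen. A comparison of the number of genes with shuffled merit labels was not made. The libraries of a group are different pigs, with 1 library per pig and tissue. The calls of single genes on the list of skatole and androstenone metabolism other than GSR are not reported here.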

Additional observations from a re-analysis of the deposited data

Results flagged for a closer look

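In groups of 4 to 10 testes, the highest or lowest value of a gene or library measure was compared with the rest of its group. A gap this large relative to the range is given by chance in about 1 of 20 groups, and here 10 of 66 values had it. All 10 were among the 7 stranded mRNA testes of medium merit in batch 1, and they came from 2 pigs.

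Pig 8308 held 7 of them. Its testis had 46.2 CPM of ENSSSCG00000020732 (next highest 6.99), 233 CPM of EGFLAM (next 37.5), 32.6 CPM of CCNG2 (next 18.1) and 25.5 CPM of TRAPPC5 (next 12.2). It had only 4.58 CPM of CA2 (next lowest 78.1) and 24.8 CPM of HINT3 (next lowest 130). The share of its reads on the 10 most abundant genes was 12.4% (next 7.25%), and the median of its correlations to other testes was 0.52. Without this library, 4 of the 18 genes in place of 5 were below 0 from low to medium merit by limma (37.4% of all genes). None of the 18 was called.

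Pig 8102 held the other 3. Its testis had 4881825 reads on genes (next lowest 9152243), with 64.8% of counted reads on genes (next lowest 67.5%), and 3.28 CPM of ACAD10 (next lowest 5.13).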

How the results depend on the processing

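The number of genes that stepped down, 18, was 15 to 27 under the other scalings and pseudocounts and 12 with all 48 livers, but it was 6 when group means replaced medians, 37 with a step of 0.2, 7 with a step of 0.3 and 56 without limits on level, spread and testis. The mirrored number, 4, was 10 with TMM factors, 0 with means, 15 and 1 with steps of 0.2 and 0.3 and 27 without limits. Leaving out each of the 46 livers in turn gave 11 to 27 genes and 2 to 10 mirrored genes. The 11 arose without the liver of medium merit of pig 1113, the shallowest library (3728775 reads on genes). Between 11 and 18 of the 18 remained, 4 in every case (ENSSSCG00000022533, UBXN8, ENSSSCG00000008488 and ENSSSCG00000022254), and CD1B and ENSSSCG00000026096 in only 22 of 46.

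Some steps changed direction. The first step was 0.0028 (EGFLAM) and 0.0049 (ENSSSCG00000026096) with TMM factors and 0.0195 (CA2), 0.0573 (EGFLAM) and 0.0608 (ENSSSCG00000026096) with size factors, and with means the second was 0.0039 for ENSSSCG00000022890 and 0.0610 for RAB17. The cause was not tested. Of the liver calls, the 3 from low to medium were 0 with edgeR, DESeq2 and TMM before voom, where 0.943%, 1.84% and 3.19% of all genes were called lower. The 7 between high and low were 0 with edgeR and without quality weights (0.0082% of all genes called lower in each), 1 with DESeq2 (0.0902%), 4 without a minimum count (0.269%) and 12 with 48 livers and the kit as a covariate (4.34%). GSR was among these 12. The 9 calls between kits in testis were 0 with edgeR, DESeq2 and without quality weights, where 5.48%, 11.2% and 7.04% of all genes were called. These fits kept the total RNA testis of pig 3309, which held counts on only 940 genes.

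No paired analysis was possible because the merit groups hold different pigs, and the pig number links only liver and testis of the same pig.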
